A study of Homo sapiens with 9 samples.

Results

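The 10 leukocyte integrin chains ITGAM, ITGAL, ITGAX, ITGB2, ITGA4, ITGB1, ITGB7, ITGA5, ITGA6 and ITGAE were followed through 9 RNA-seq libraries of U937 cells. Members were taken by gene name, and each of the 10 was found once among the 60623 genes listed. U937 is a human monocytic cell line. The libraries came from 3 stable U937 lines transduced with a retroviral, doxycycline-inducible vector carrying a puromycin resistance gene: an empty vector line (U937-CTR), a line with HA-tagged AML1-ETO (U937-AE) and a line with HA-tagged ETO2-GLIS2 (U937-EG), called empty vector, AML1-ETO and ETO2-GLIS2 cells here. AML1-ETO and ETO2-GLIS2 are fusion proteins found in acute myeloid leukemia. Each line was sampled at 0 h, 12 h and 48 h of 5 µg/ml doxycycline, with 1 library for each line and time, and the fusion lines were single clones grown up by limiting dilution. There was therefore no replicate check, no test was made, and a line could not be told apart from its clone.

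Integrins are cell surface receptors made of an alpha and a beta chain, which reach the surface as a pair. In leukocytes the beta 2 chain ITGB2 (CD18) pairs with ITGAL (CD11a) to form LFA-1, with ITGAM (CD11b) to form Mac-1 and with ITGAX (CD11c), receptors that bind ICAM adhesion molecules, fibrinogen and complement fragments in firm adhesion, migration and phagocytosis. The beta 1 chain ITGB1 pairs with ITGA4, ITGA5 and ITGA6 to bind VCAM1, fibronectin and laminin, and the beta 7 chain ITGB7 pairs with ITGA4 or ITGAE to bind the mucosal ligand MADCAM1 or E-cadherin. CD11b is a widely used surface marker of myeloid differentiation, and the study read it by flow cytometry after a differentiating treatment, which the libraries described here did not receive.

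The values are FPKM, fragments per kilobase of gene scaled to the library's total, so that levels can be compared between genes per length. A difference is the log2 ratio of FPKM + 0.01. A gene was taken as expressed when it averaged 1 FPKM or more over both libraries compared, and an expressed gene past 2-fold counted as higher or lower. The intervals are 95% intervals of the ratio of the reads recovered from the FPKM values, and they cover counting error only. Library totals ran from 15136406 to 18443646. At 48 h the median gene lay above its 0 h level in every line, by 0.16 in the empty vector and ETO2-GLIS2 lines and by 0.22 in AML1-ETO cells on the log2 scale. RUNX1T1, the gene of the ETO part, was at 0.512, 22.2 and 28.7 FPKM through 0, 12 and 48 h in AML1-ETO cells and at most 0.0240 FPKM elsewhere. GLIS2 was at 2.39, 6.79 and 8.85 FPKM and CBFA2T3 (ETO2) at 4.10, 11.4 and 12.6 FPKM in ETO2-GLIS2 cells. Both genes were also read in the other lines. GLIS2 was at 3.64 to 4.76 FPKM in empty vector cells and 2.47 to 5.6 FPKM in AML1-ETO cells. CBFA2T3 was at 4.75 to 6.38 FPKM in empty vector cells and 0.22 to 5.26 FPKM in AML1-ETO cells. At 0 h both genes were lowest in ETO2-GLIS2 cells.

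At 48 h against 0 h, 2 of the 9 expressed chains were higher and none was lower in empty vector cells, where 8.0% of all expressed genes were higher and 2.99% lower. In ETO2-GLIS2 cells all 10 chains were expressed, 4 were higher and none was lower, against 10.8% of genes higher and 2.54% lower. In AML1-ETO cells 1 of 8 expressed chains was higher and 4 were lower, against 17.3% of genes higher and 11.3% lower. The median log2 difference of all 10 chains was 0.40 in empty vector cells, 0.65 in ETO2-GLIS2 cells and -0.94 in AML1-ETO cells. By mean FPKM over the 9 libraries the order was ITGB2 (296), ITGB1 (82.3), ITGA5 (68.2), ITGA6 (54.9), ITGA4 (50.8), ITGAL (11.2), ITGAE (7.47), ITGAX (4.07), ITGAM (3.03) and ITGB7 (0.540). The ranges of every neighbouring pair in this order overlapped.

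**Figure D1:**
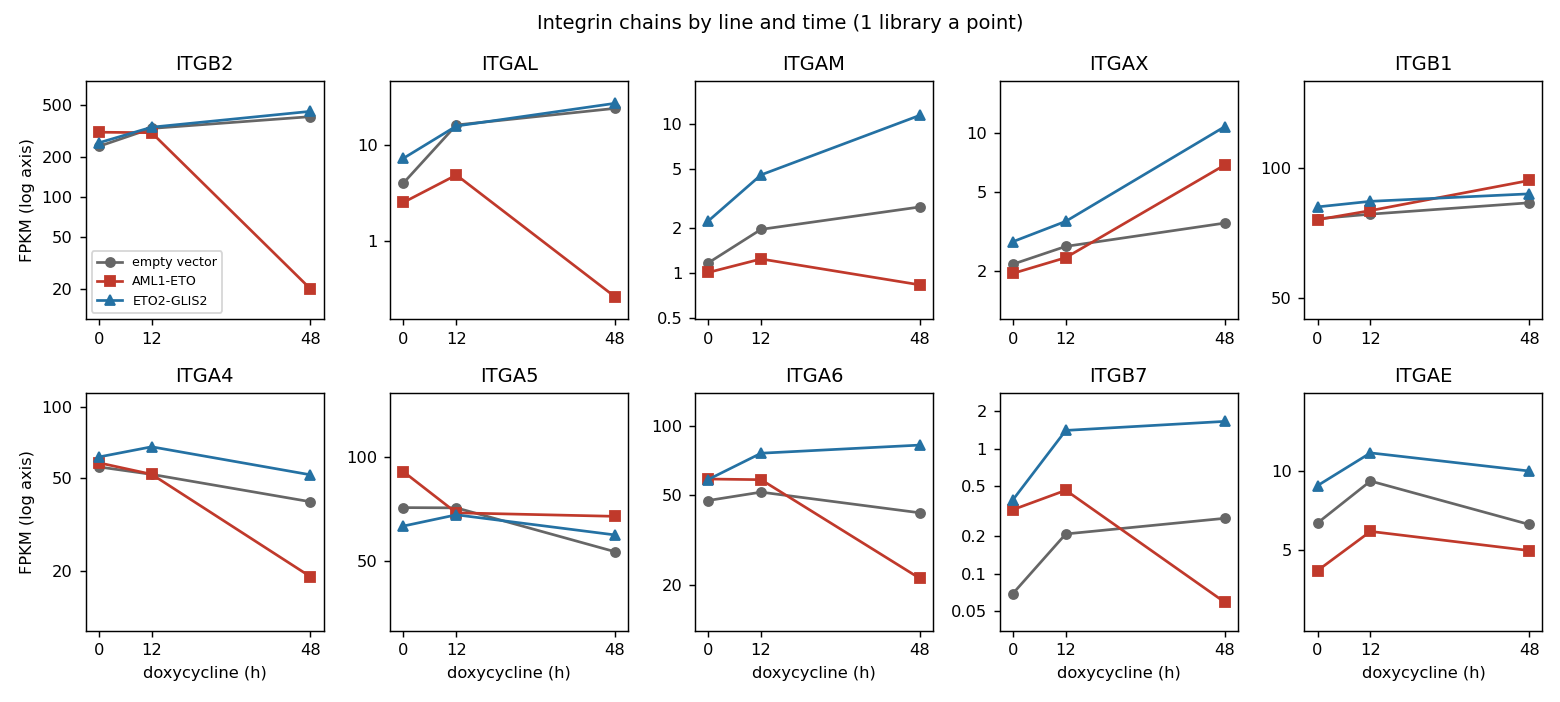
FPKM of each chain (log axis, with its own range in each panel) against hours of doxycycline, 1 library a point, for empty vector cells (grey circles), AML1-ETO cells (red squares) and ETO2-GLIS2 cells (blue triangles). In AML1-ETO cells ITGB2, ITGAL, ITGA4 and ITGA6 drop between 12 h and 48 h, while ITGAM in ETO2-GLIS2 cells climbs from 2.23 to 11.5 FPKM.

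ITGAM (ENSG00000169896; chr16:31259975-31332877, GRCh38) encodes CD11b, the alpha chain of Mac-1. Its level in empty vector cells was 1.17 FPKM at 0 h, 1.96 at 12 h and 2.78 at 48 h. The same 3 times in ETO2-GLIS2 cells gave 2.23, 4.56 and 11.5 FPKM. In AML1-ETO cells it was 1.01, 1.24 and 0.832 FPKM. The ETO2-GLIS2 libraries thus held more ITGAM than the empty vector library of the same time at all 3 times, and the AML1-ETO libraries less. At 0 h the AML1-ETO difference from empty vector cells was -0.21 (-0.63 to 0.20), an interval that holds 0. The ITGAM levels rest on 72 to 1066 reads a library. Among genes above 0, ITGAM stood above 48.6% of genes in empty vector cells at 0 h, above 80.5% in the ETO2-GLIS2 library of 48 h and above 43.2% in the AML1-ETO library of 48 h.

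From 0 h to 48 h ITGAM was 5.14-fold higher in ETO2-GLIS2 cells, a log2 difference of 2.36 (2.16 to 2.57), and 1.76% of the genes tested had a larger one. Empty vector cells differed by 1.24 (0.92 to 1.59), with 4.72% of genes above it. In AML1-ETO cells the difference was -0.27 (-0.74 to 0.18), an interval that holds 0, and the gene averaged under 1 FPKM. After subtraction of the change in empty vector cells, 1.11 (0.73 to 1.5) remained in ETO2-GLIS2 cells and -1.52 (-2.07 to -0.97) in AML1-ETO cells, and both values share the same empty vector libraries. At 12 h the same subtraction gave 0.28 (-0.13 to 0.70) and -0.45 (-0.97 to 0.08), both with 0 inside the interval. The lines were not alike before doxycycline: at 0 h ITGAM in ETO2-GLIS2 cells lay 0.93 (0.60 to 1.28) above empty vector cells, and at 48 h it lay 2.04 (1.84 to 2.25) above them. In whole-culture RNA, a change in the number of cells that express a gene cannot be told apart from a change in the RNA of each cell.

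The promoter window of ITGAM is shown because it was the chain past 2-fold from empty vector cells in opposite directions in the fusion lines at 48 h. RefSeq windows run from 250 bases before to 50 bases after a gene's start, except that of ITGA4, which lies further into the gene as annotated. In all, 7 of the 10 chains were matched to a window, leaving out ITGAL, ITGAX and ITGB2. They were searched on both strands for TGTGGT and TGCGGT, core sequences of the Runt domain of AML1, GAGGAA, the core of sites of the myeloid factor PU.1, and TGGGGGG, a GLIS core. Capitals mark the matches. The window (GRCh38, chr16:31259725-31260024, plus strand) reads:
ITGAM: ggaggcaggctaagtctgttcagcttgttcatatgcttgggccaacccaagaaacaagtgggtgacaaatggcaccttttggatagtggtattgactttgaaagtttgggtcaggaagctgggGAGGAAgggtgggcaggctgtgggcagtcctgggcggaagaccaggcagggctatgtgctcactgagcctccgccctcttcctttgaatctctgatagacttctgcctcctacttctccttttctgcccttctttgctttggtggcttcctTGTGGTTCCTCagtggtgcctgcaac
The window held TGTGGT at position 25 after the start. It held GAGGAA at position -127 and, on the other strand, at position 30, where it overlaps the Runt letters. Of 35116 RefSeq windows of this length, 13.1% held TGTGGT on either strand, 7.29% TGCGGT, 27.9% GAGGAA and 7.76% TGGGGGG. Among the 7 chains TGTGGT was found in 2 (ITGAM and ITGA6), TGCGGT in none, GAGGAA in 4 (ITGAM, ITGB1, ITGB7 and ITGAE) and TGGGGGG in 1 (ITGA5). These are letter matches only, and binding was not analysed here.

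ITGAL (ENSG00000005844; chr16:30472742-30523185) encodes CD11a, the alpha chain of LFA-1, which binds ICAM1. Its level was 4.02, 16.0 and 23.8 FPKM in empty vector cells and 7.24, 15.6 and 26.8 FPKM in ETO2-GLIS2 cells. In AML1-ETO cells it was 2.53 FPKM at 0 h, 4.86 at 12 h and 0.267 at 48 h, the last from 26 reads. ITGAL was thus above its 0 h level in all 3 lines at 12 h and was lowest of all 9 libraries in AML1-ETO cells at 48 h. The 48 h difference was 2.56 (2.42 to 2.72) in empty vector cells and 1.89 (1.78 to 2.0) in ETO2-GLIS2 cells. With the empty vector change subtracted, ETO2-GLIS2 cells gave -0.67 (-0.86 to -0.49). In level they lay 0.85 (0.68 to 1.02) above empty vector cells at 0 h and 0.17 (0.09 to 0.25) above at 48 h. In AML1-ETO cells the 48 h difference was -3.20 (-3.89 to -2.66), a level 9.49-fold lower than at 0 h. At 12 h the difference had been 0.94 (0.72 to 1.16) there. ITGAL was the chain with the largest difference in empty vector cells, where only 0.981% of genes tested had a larger one. Unlike ITGAM, it differed less in ETO2-GLIS2 cells than in empty vector cells.

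ITGAX (ENSG00000140678; chr16:31355176-31382999) lies beside ITGAM and encodes CD11c, the alpha chain of a complement receptor of macrophages and dendritic cells. Its level was 2.17, 2.67 and 3.50 FPKM in empty vector cells. It was 1.95, 2.34 and 6.86 FPKM in AML1-ETO cells and 2.82, 3.57 and 10.7 FPKM in ETO2-GLIS2 cells. At 48 h both fusion lines held more ITGAX than any library of empty vector cells, and at 12 h neither had moved past 2-fold. The 48 h difference was 1.81 (1.60 to 2.03) in AML1-ETO cells, 1.92 (1.75 to 2.10) in ETO2-GLIS2 cells and 0.69 (0.45 to 0.92) in empty vector cells. With the empty vector change subtracted the fusion lines gave 1.12 (0.81 to 1.44) and 1.23 (0.95 to 1.52). ITGAX was the sole chain past 2-fold in the same direction in both fusion lines, and the sole one higher in AML1-ETO cells. ITGAM, its neighbour on the chromosome, was 0.832 FPKM in the AML1-ETO library where ITGAX was 6.86. No exon of another annotated gene overlaps the exons of ITGAM or ITGAX.

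ITGB2 (ENSG00000160255; chr21:44885953-44928815) encodes the beta 2 chain that all CD11 alpha chains need to reach the surface. It was the most abundant chain by mean, above 99.5% of genes in 8 of the 9 libraries. Its level was 242, 332 and 408 FPKM in empty vector cells and 258, 339 and 448 FPKM in ETO2-GLIS2 cells. In AML1-ETO cells it was 311 and 308 FPKM at 0 h and 12 h and 20.1 FPKM at 48 h. The AML1-ETO library at 48 h thus lay far below the other 8, which overlapped between lines. The 48 h difference was -3.95 (-4.02 to -3.89) in AML1-ETO cells, a 15.5-fold lower level, and 0.923% of genes tested were further down. It was 0.75 (0.73 to 0.77) in empty vector cells and 0.80 (0.78 to 0.82) in ETO2-GLIS2 cells, which differed by 0.04 (0.01 to 0.07). At 12 h AML1-ETO cells were at -0.01 (-0.03 to 0.01). The library kit did not keep strand, and the antisense gene ITGB2-AS1 covers 4.15% of the exon bases of ITGB2. ITGB2-AS1 was at 0.0270 to 1.83 FPKM, lowest in the same AML1-ETO library.

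**Figure D2:**
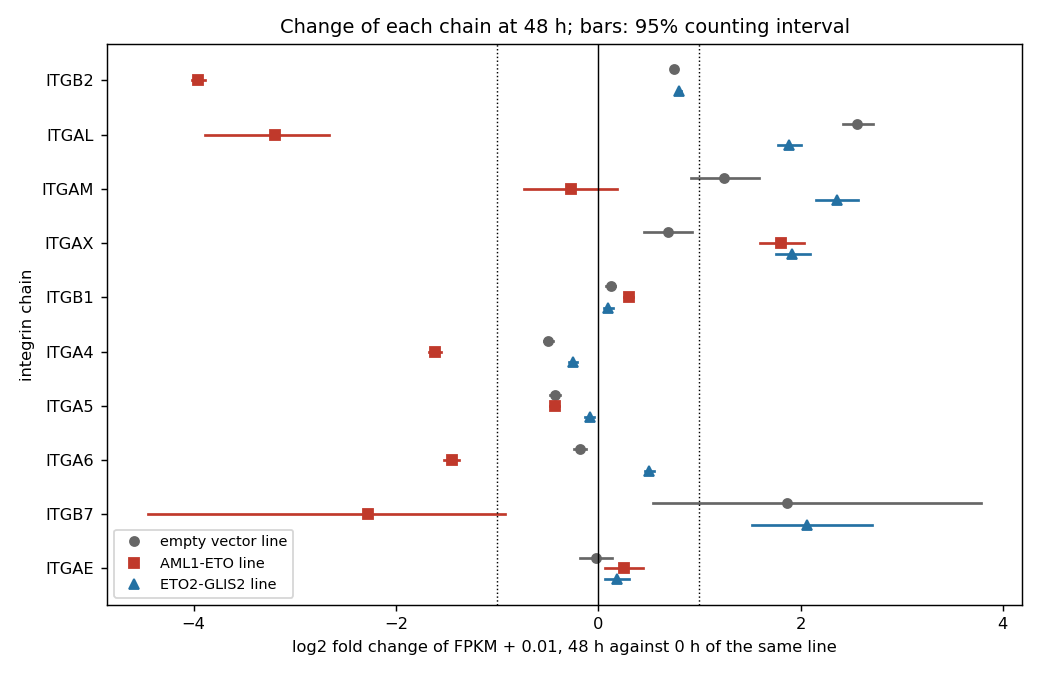
Log2 difference in FPKM + 0.01 of each line at 48 h from its own 0 h library (x axis) for each chain, with bars for the 95% counting interval and dotted lines at 2-fold. ITGAM is at 2.36, 1.24 and -0.27 in the ETO2-GLIS2, empty vector and AML1-ETO lines, and ITGB2 at 0.80, 0.75 and -3.95. The AML1-ETO points of ITGAM and ITGB7 and the empty vector point of ITGB7 have a mean under 1 FPKM.

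The balance between ITGB2 and its alpha chains followed from these levels. In the uninduced empty vector line ITGB2 was at 33.0 times the summed FPKM of ITGAL, ITGAM, ITGAX and ITGAD, and at 48 h at 13.6 times. The ratio went from 21.0 to 9.14 in ETO2-GLIS2 cells and from 56.5 to 2.52 in AML1-ETO cells, so the beta chain transcript exceeded the alpha chains in every library. ITGAD, a further alpha chain of ITGB2, had 1 read in 1 library and none in the others. ITGAL made up 54.6% of the alpha chain sum in empty vector cells at 0 h and 79.1% at 48 h, while ITGAM went from 15.9% to 9.23%. In ETO2-GLIS2 cells ITGAM made up 18.1% and then 23.4%, and ITGAL 58.9% and then 54.8%. In AML1-ETO cells ITGAX went from 35.5% to 86.2% and ITGAL from 46.0% to 3.35%. The alpha chain sum itself was 5.50 FPKM at 0 h and 7.95 at 48 h in AML1-ETO cells, against 12.3 and 49.0 in ETO2-GLIS2 cells. These are transcript levels, and surface protein was not analysed here.

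**Figure D3:**
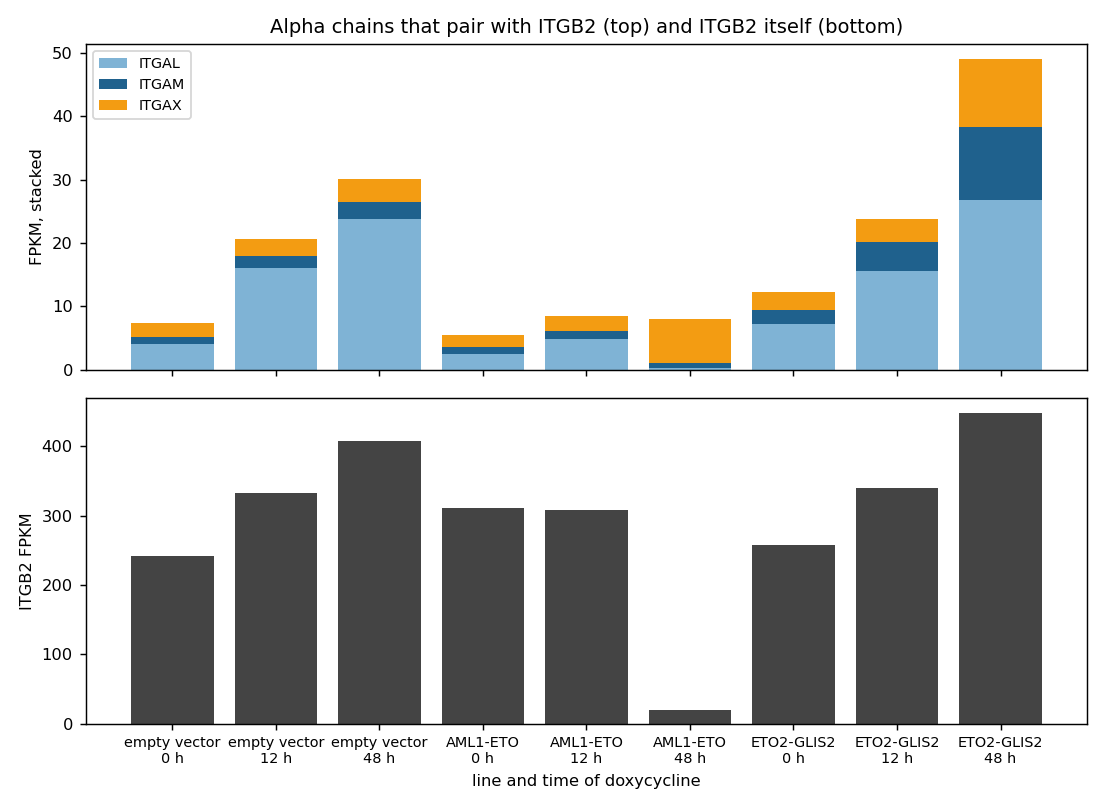
Top, stacked FPKM of ITGAL, ITGAM and ITGAX in each of the 9 libraries (line and hours of doxycycline on the x axis). Bottom, FPKM of ITGB2 in the same libraries. ITGAL fills most of each bar in empty vector cells, ITGAM widens to 11.5 FPKM among ETO2-GLIS2 libraries, and in AML1-ETO cells at 48 h ITGAX makes up 86.2% of the bar above an ITGB2 level of 20.1 FPKM.

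ITGB1 (ENSG00000150093; chr10:32900318-32958230) encodes the beta 1 chain, used by nearly every adherent cell. Its level lay between 76.1 and 93.8 FPKM in the 9 libraries, the narrowest range of the 10 chains as a ratio of the highest to the lowest level. The 48 h difference was 0.12 (0.08 to 0.17) in empty vector cells, 0.30 (0.26 to 0.35) in AML1-ETO cells and 0.10 (0.06 to 0.14) in ETO2-GLIS2 cells, all within 2-fold. Scaling by the median ratio of all genes turned the first and the last to -0.03 and -0.06, so no direction is given for them. The same scaling brought the AML1-ETO value to 0.09, below its counting interval. ITGB1 and ITGB2 were thus opposite cases in the AML1-ETO library at 48 h, with 93.8 FPKM of the former and 20.1 of the latter.

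ITGA4 (ENSG00000115232; chr2:181457205-181538940) encodes CD49d, the alpha chain of VLA-4, which holds progenitors to VCAM1 in the marrow. Its level was 55.7, 51.8 and 39.6 FPKM in empty vector cells, 61.4, 67.9 and 51.6 FPKM in ETO2-GLIS2 cells and 58.0, 51.8 and 19.0 FPKM in AML1-ETO cells. All lines were lower at 48 h than at 0 h, and AML1-ETO cells furthest, by -1.61 (-1.67 to -1.55) against -0.49 (-0.54 to -0.45) and -0.25 (-0.29 to -0.21) in the empty vector and ETO2-GLIS2 lines. CERKL, on the other strand, covers 26.4% of the exon bases of ITGA4 and was at 0.0413 to 0.180 FPKM.

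ITGA6 (ENSG00000091409; chr2:172427336-172506459) encodes CD49f, the alpha chain of a laminin receptor. Its level was 47.1, 51.2 and 41.5 FPKM in empty vector cells. It was 58.5, 58.1 and 21.4 FPKM in AML1-ETO cells and 58.2, 75.9 and 82.5 FPKM in ETO2-GLIS2 cells. The fusion lines started alike and ended as the lowest and the highest of the 9 libraries. The 48 h difference was -1.45 (-1.52 to -1.38) in AML1-ETO cells and 0.50 (0.46 to 0.55) in ETO2-GLIS2 cells, within 2-fold, with -0.18 (-0.24 to -0.12) in empty vector cells. With the empty vector change subtracted these were -1.27 (-1.36 to -1.18) and 0.68 (0.61 to 0.76).

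The window of ITGA6 (GRCh38, chr2:172427086-172427385, plus strand) is shown because it was the only one beside that of ITGAM to hold a Runt core. It held TGTGGT on the reverse strand, ACCACA as written, at position 14 after the start. The window reads:
ITGA6: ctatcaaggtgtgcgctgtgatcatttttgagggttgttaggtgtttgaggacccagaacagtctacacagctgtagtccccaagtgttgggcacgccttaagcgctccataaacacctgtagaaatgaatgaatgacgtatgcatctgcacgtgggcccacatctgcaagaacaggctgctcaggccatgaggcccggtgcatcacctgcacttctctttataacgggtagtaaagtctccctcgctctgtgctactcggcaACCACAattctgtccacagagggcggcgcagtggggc
Capitals mark the match.

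ITGA5 (ENSG00000161638; chr12:54395261-54419266), the alpha chain of the fibronectin receptor, lay between 53.1 and 90.9 FPKM. It was within 2-fold in every line at 48 h, at -0.43 (-0.48 to -0.38) in empty vector cells, -0.43 (-0.47 to -0.39) in AML1-ETO cells and -0.09 (-0.13 to -0.04) in ETO2-GLIS2 cells. With ITGA4 and ITGA6 lower, ITGA5 made up 62.5% of the summed FPKM of these 3 alpha chains of ITGB1 in AML1-ETO cells at 48 h, from 43.8% at 0 h. In ETO2-GLIS2 cells ITGA6 had the largest part at 48 h, 42.6% from 31.9%, and in empty vector cells ITGA5 kept it, 39.5% from 41.0%.

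ITGB7 (ENSG00000139626; chr12:53191323-53207251), the beta chain of gut-homing lymphocyte receptors, was the lowest of the 10 chains. Its level was 0.0691, 0.208 and 0.277 FPKM in empty vector cells (5, 14 and 19 reads), 0.325, 0.466 and 0.0591 FPKM in AML1-ETO cells (24, 32 and 4 reads) and 0.390, 1.41 and 1.66 FPKM in ETO2-GLIS2 cells (32, 112 and 121 reads). It was expressed by this rule at 48 h in ETO2-GLIS2 cells alone, with a difference of 2.06 (1.52 to 2.70). Empty vector cells gave 1.86 (0.54 to 3.78). The change in ETO2-GLIS2 cells minus that in empty vector cells was 0.20 (-1.33 to 1.73), not detectable at this depth. In level, ETO2-GLIS2 cells lay above empty vector cells before doxycycline, by 2.34 (1.13 to 4.21) at 0 h. At 48 h they lay 2.54 (1.88 to 3.36) above, and ITGB7 averaged under 1 FPKM in both comparisons. Exons of ZNF740 on the other strand cover 42.3% of the exon bases of ITGB7, and reads from the shared bases cannot be assigned without strand. ZNF740 was at 5.41 to 9.14 FPKM and was highest where ITGB7 was lowest.

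ITGAE (ENSG00000083457; chr17:3714628-3801188), the alpha chain CD103 of a receptor for E-cadherin, was at 6.32, 9.15 and 6.24 FPKM in empty vector cells, 4.16, 5.87 and 4.96 FPKM in AML1-ETO cells and 8.79, 11.7 and 9.99 FPKM in ETO2-GLIS2 cells. It peaked at 12 h in all 3 lines, and its 48 h differences of -0.02 (-0.18 to 0.14), 0.25 (0.07 to 0.44) and 0.19 (0.06 to 0.31) were within 2-fold. HASPIN lies within ITGAE on the other strand, and such genes together cover 7.65% of the exon bases of ITGAE. HASPIN was at 7.25 to 16.8 FPKM.

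The timing differed between the chains. From 0 h to 12 h ITGAL was the only expressed chain past 2-fold in empty vector cells, at 1.99 (1.84 to 2.15). There 5.64% of expressed genes were higher and 1.88% lower. ITGAM and ITGAL were higher in ETO2-GLIS2 cells, at 1.03 (0.80 to 1.26) and 1.11 (0.99 to 1.23), against 3.03% of genes higher and 1.46% lower. No chain of 9 was past 2-fold at 12 h in AML1-ETO cells, against 8.97% of genes. From 12 h to 48 h the same 4 chains were lower and ITGAX higher in AML1-ETO cells, where 10.2% of genes were lower and 9.12% higher. ITGAM and ITGAX were higher over this time in ETO2-GLIS2 cells (5.67% of genes higher, 2.14% lower), and none of 9 was past 2-fold in empty vector cells (5.26% of genes). The steps of ITGAL, -4.14 (-4.82 to -3.62), and of ITGB2, -3.94 (-4.01 to -3.88), in AML1-ETO cells were the largest, both after 12 h.

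Before doxycycline no chain of 9 was past 2-fold from empty vector cells, against 4.9% of genes for AML1-ETO cells and 6.41% for ETO2-GLIS2 cells. At 12 h ITGAL was lower in AML1-ETO cells (4.37% of genes lower, 4.4% higher) and ITGAM higher in ETO2-GLIS2 cells (2.57% of genes higher, 4.36% lower). At 48 h ITGAM, ITGAL, ITGB2 and ITGA4 were lower in AML1-ETO cells, by -1.73 (-2.14 to -1.35), -6.43 (-7.10 to -5.92), -4.35 (-4.41 to -4.28) and -1.06 (-1.12 to -1.0), against 11.7% of genes lower and 11.8% higher. ITGAM and ITGAX were then higher in ETO2-GLIS2 cells, by 2.04 (1.84 to 2.25) and 1.61 (1.45 to 1.78), against 4.15% of genes higher and 2.53% lower.

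The fusion lines were also set against each other. At 48 h AML1-ETO gave 6 of 9 chains lower than ETO2-GLIS2 and none higher, where 11.6% of genes were lower and 9.59% higher, and ITGAM differed by -3.77 (-4.15 to -3.44). At 12 h ITGAM and ITGAL were lower (2.68% of genes lower, 5.33% higher), with ITGAM at -1.87 (-2.19 to -1.57). At 0 h ITGAM, ITGAL and ITGAE were lower already (2.91% of genes lower, 3.98% higher), ITGAM by -1.14.

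ITGAM was set against the other chains in each comparison. In ETO2-GLIS2 cells at 48 h its difference was the highest of the 10, 1.85 above the median of the other 9 chains (0.50). In empty vector cells it had rank 3, after ITGAL and ITGB7, and lay 1.12 above the median of the others (0.12). In AML1-ETO cells it had rank 4 and lay 1.18 above a median of -1.45. Over the 9 libraries Pearson's r of log2 FPKM with ITGAM, given as a description over libraries that share lines and times, was 0.81 for ITGB7, the chain most like it, 0.79 for ITGAE, 0.78 for ITGAL and 0.54 for its own partner ITGB2. Of 7213 genes averaging 5 FPKM or more, the 5 most like ITGAM were PPP4R1 (r 0.96), a regulatory subunit of protein phosphatase 4, CPVL (0.96), a carboxypeptidase, LPXN (0.95), the leukocyte paxillin relative leupaxin, GCLC (0.95), the catalytic subunit of the first enzyme of glutathione synthesis, and MGAT4A (0.95), an enzyme of N-glycan branching. LPXN was at 15.5, 22.0 and 41.7 FPKM in empty vector cells, 9.78, 11.6 and 14.3 FPKM in AML1-ETO cells and 26.4, 44.7 and 82.5 FPKM in ETO2-GLIS2 cells. It shared with ITGAM the order of the lines at every time.

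Integrins are switched on from within the cell by proteins that bring talin and kindlin to the beta tail. Of 17 genes of this inside-out activation, 15 were expressed at 48 h. Here and for the lists that follow, the shares of all expressed genes past 2-fold were 8.0% higher and 2.99% lower in empty vector cells, 10.8% and 2.54% in ETO2-GLIS2 cells and 17.3% and 11.3% in AML1-ETO cells, and the medians of all genes were 0.16, 0.16 and 0.22. None was past 2-fold in empty vector cells (median 0.12) or ETO2-GLIS2 cells (median 0.18), and 4 were lower and none higher in AML1-ETO cells (median -0.51), where 11.3% of genes were lower. RASGRP2, the exchange factor that loads RAP1, was at 16.8, 10.7 and 0.486 FPKM in AML1-ETO cells, -5.08 (-5.57 to -4.69) at 48 h. RASSF5 (RAPL), which carries active RAP1 to ITGAL, was at 12.5, 6.31 and 0.923 FPKM, -3.74 (-4.07 to -3.46). The lower genes also held SIPA1 and RASA3, GTPase-activating proteins that switch RAP1 off, with SIPA1 at 32.1, 19.2 and 8.01 FPKM. The talin gene TLN1 (50.3 to 71.6 FPKM) and the leukocyte kindlin gene FERMT3 (67.3 to 110.0 FPKM) were within 2-fold in all lines.

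Of 16 inhibitors and other proteins of the integrin tail, 13 or 14 were expressed. In AML1-ETO cells 4 were lower and 1 was higher (median -0.02), against 11.3% and 17.3% of genes. In empty vector cells 1 was lower (VCL, median 0.10), against 2.99% of genes, and in ETO2-GLIS2 cells none was past 2-fold (median 0.11). FLNA, the filamin that competes with talin for the beta tail, was at 191, 127 and 11.1 FPKM in AML1-ETO cells, -4.10 (-4.17 to -4.03). ACTN4, an actin crosslinker, was -1.21 (-1.26 to -1.16) there, and the adaptor LIMS1 was 1.28 (1.19 to 1.36).

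Of 17 genes that carry signals from bound integrins into the cell, 15 were expressed. In AML1-ETO cells 7 were lower and none higher (median -0.77), against 11.3% and 17.3% of genes. In empty vector cells 4 were higher (median 0.08), against 8.0% of genes, and in ETO2-GLIS2 cells 3 (median 0.37), against 10.8%, with none lower in either. FGR, a SRC family kinase downstream of ITGB2, was at 16.2, 34.9 and 53.5 FPKM in empty vector cells, 23.8, 19.3 and 1.07 FPKM in AML1-ETO cells and 19.8, 33.6 and 44.4 FPKM in ETO2-GLIS2 cells. TYROBP (DAP12), an adaptor with a tyrosine activation motif, was 16.9, 26.1 and 1.59 FPKM in AML1-ETO cells, -3.40 (-4.11 to -2.78), and the exchange factor VAV1 was -2.59 (-2.82 to -2.38). FCER1G, the other such adaptor, was at 51.6, 88.5 and 217 FPKM in ETO2-GLIS2 cells, 2.07 (1.96 to 2.18), beside 1.96 in empty vector cells, and FGR was 1.16 (1.06 to 1.26) there beside 1.72. FCER1G and FGR were thus higher in empty vector cells too.

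**Figure D4:**
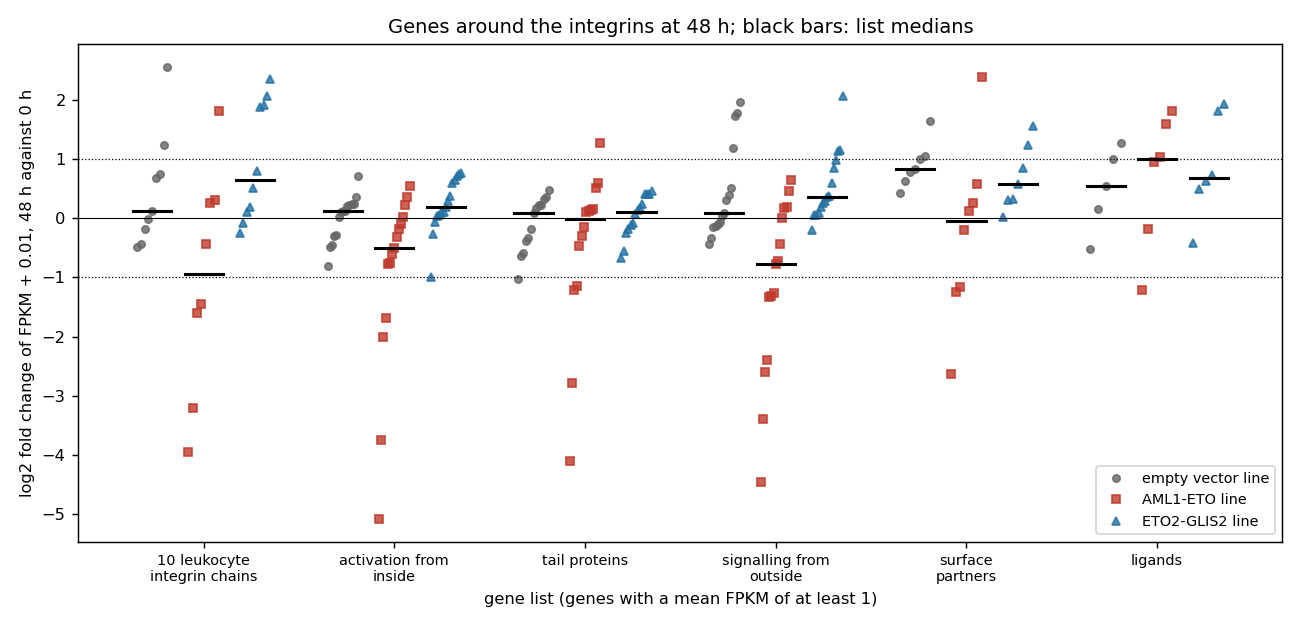
Log2 difference in FPKM + 0.01 between 48 h and 0 h for the 10 chains and 5 lists of genes around them, 1 point an expressed gene, coloured by line, with black bars at the list medians and dotted lines at 2-fold. Some AML1-ETO points reach far below the others in the lists for activation from inside (median -0.51) and signalling from outside (median -0.77). Single AML1-ETO points do so too among the 10 chains, the tail proteins and the surface partners. The bars of the 10 chains leave out those with a mean under 1 FPKM, so the bar of empty vector cells is at 0.12.

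Among 10 surface partners of integrins, SLC3A2 (CD98 heavy chain, which binds beta 1 tails) was past 2-fold in all 3 lines, at 1.63 in empty vector cells, 2.39 (2.30 to 2.47) in AML1-ETO cells and 1.24 (1.18 to 1.31) in ETO2-GLIS2 cells. The tetraspanin CD82 was at 3.93, 7.18 and 11.7 FPKM in ETO2-GLIS2 cells and 6.21, 4.06 and 0.993 FPKM in AML1-ETO cells. In empty vector cells CD82 was at 5.59, 8.33 and 11.2 FPKM, so it was higher at 48 h there too, by 1.01. Of the partners expressed, 3 of 7 were higher in empty vector cells (median 0.84, 8.0% of genes higher) and 2 of 7 in ETO2-GLIS2 cells (median 0.57, 10.8% of genes). In AML1-ETO cells 1 of 8 was higher and 3 were lower (median -0.04), against 17.3% and 11.3% of genes. Of 21 ligand genes, 5 or 6 were expressed, with 1 higher in empty vector cells (median 0.54, 8.0% of genes) and 2 higher in ETO2-GLIS2 cells (median 0.68, 10.8% of genes). In AML1-ETO cells 3 were higher and 1 was lower (median 1.0), against 17.3% and 11.3% of genes. F11R (JAM-A), a ligand of LFA-1, was at 5.43, 7.95 and 16.5 FPKM in AML1-ETO cells, 1.60 (1.44 to 1.76), beside 1.28 in empty vector cells. ICAM1 was at 8.04 to 20.9 FPKM, and VCAM1 was listed at 0 in all 9 libraries.

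Of the 16 other integrin chains, 2 or 3 were expressed in a line, with medians of 0.22 in empty vector, 0.85 in AML1-ETO and 0.36 in ETO2-GLIS2 cells. ITGA7, a laminin receptor chain, was at 15.7, 11.9 and 2.88 FPKM in AML1-ETO cells, -2.44 (-2.63 to -2.26), and at 13.8 to 19.6 FPKM in the other lines. It was the only one of them past 2-fold in any line at 48 h. ITGAV was at 2.30 to 4.84 FPKM and ITGA3 at 0.803 to 1.99 FPKM.

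The AML1-ETO library at 48 h also differed in myeloid markers. The list held the granule protein genes MPO, ELANE and CTSG, which are not particular to monocytes, beside monocytic markers. Of its 10 genes, 7 reached 1 FPKM in the empty vector and ETO2-GLIS2 lines and 6 in AML1-ETO cells. Their summed FPKM ran from 839 to 1476 in empty vector cells, from 783 to 2284 in ETO2-GLIS2 cells and from 316 to 2207 in AML1-ETO cells. LYZ (lysozyme) was at 970, 1346 and 45.1 FPKM and CTSG (cathepsin G) at 83.8, 63.4 and 2.59 FPKM in AML1-ETO cells, so they were lowest where ITGB2 and ITGAL were lowest. LYZ was also lower at 48 h than at 0 h in ETO2-GLIS2 cells, at 1283, 1517 and 332 FPKM, and in empty vector cells, at 519, 775 and 380 FPKM. ELANE (neutrophil elastase) was lower at 48 h in all 3 lines, from 428 to 157 FPKM in empty vector cells, 520.0 to 66.7 FPKM in AML1-ETO cells and 491 to 122 FPKM in ETO2-GLIS2 cells. FCGR1A, CD33 and MPO were not lowest in the AML1-ETO library of 48 h, and each was above its 0 h level there. FCGR1A and CD33 were nonetheless lower at 48 h than at 12 h in AML1-ETO cells. FCGR1A was at 2.53, 5.6 and 3.49 FPKM, and CD33 went from 8.24 to 6.65 FPKM after 12 h, with 594 reads at 0 h and 605 at 48 h. After 12 h both were higher in empty vector cells, while in ETO2-GLIS2 cells FCGR1A was lower and CD33 higher. MPO in AML1-ETO cells was at 0.154 FPKM at 0 h and 0.559 at 48 h, from 9 and 30 reads. CD4 stayed between 173 and 239 FPKM in all libraries. The defining monocytic markers CD14 and CD68 were listed at 0.0802 FPKM or less throughout. That is given as listed and not read as absence. Of 5 T and NK cell markers, CD3D and CD3E were at 0 and NKG7 made up nearly all of the sum of 9.64 to 89.9 FPKM, lowest in the same AML1-ETO library. Of 4 B cell markers MS4A1 was at 0 and the sum was 4.44 to 7.66 FPKM, and of 5 erythroid markers HBB was at 0 and the sum was 1.52 to 3.89 FPKM. The part of these markers' change in the integrin values was not tested.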

How the data were processed

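RNA of U937 stable lines was extracted with TRIzol, and the authors prepared libraries with the TruSeq RNA kit, version 2, which keeps no strand, and sequenced them on an Illumina NovaSeq. HISAT2 (2.0.5) mapped the reads to hg38, SAMtools (1.7) handled the alignments and HTSeq (0.9.1) counted reads per gene. The deposited FPKM values, 1 file a library, were calculated by the authors with an R script. All values here were computed from them in Python (3.11.15), with scipy (1.17.1) for the intervals and pandas (2.3.3) for the tables. Whole reads were recovered by finding, for each gene, the smallest length that made FPKM times the library total whole in all 9 libraries, which gives the fewest reads and the widest interval. Library totals were derived from 8409 genes. Differences are log2 of FPKM + 0.01, with exact Clopper-Pearson 95% intervals of the read ratio (normal approximations for values less the empty vector change). The recovery of reads and library totals and the 2-fold calls were checked on simulated data, and the intervals were not. With 1 library a condition no test was made.

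The members and gene lists were chosen with earlier results of these data known. All 10 members are named, with the 5 genes most correlated with ITGAM and, of each list, up to 3 genes past 2-fold with the largest changes in each fusion line (mean FPKM of at least 5), and genes needed to describe a pair. A gene this rule also picked is not reported here. Genes outside this rule (ICAM1, VCAM1, ITGAV, ITGA3 and markers) were named after their values were seen. Gene coordinates and promoter windows are from RefSeq (GRCh38.p14), and exon overlaps from GENCODE. Alternatives were other pseudocounts, filters, fold thresholds, scaling, times and controls. CD11b flow cytometry was not analysed here.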

Additional observations from a re-analysis of the deposited data

Results flagged for a closer look

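ITGB2 and ITGA6 moved in opposite directions in the fusion lines at both 12 h and 48 h. For ITGB2 the log2 difference at 48 h in AML1-ETO cells minus that in ETO2-GLIS2 cells was -4.75, and for ITGA6 it was -1.95. At 12 h AML1-ETO cells were at -0.01 (-0.03 to 0.01) for ITGB2 and -0.01 (-0.06 to 0.04) for ITGA6, both with 0 inside the counting interval, against 0.40 and 0.38 in ETO2-GLIS2 cells, so the opposite signs at 12 h rest on values next to 0. This contrast of the fusion lines was not tested, as each condition had 1 library.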

How the results depend on the processing

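No paired analysis was possible because each line and time had 1 library and no replicate numbers were shared, and no library could be left out. The 2 higher chains of empty vector cells became 1 with a pseudocount of 1, a mean FPKM of at least 5, a 3-fold threshold or at 12 h. They became 3 without the filter on low values and 4 at 1.5-fold. The 1 higher chain of AML1-ETO cells became 0 with a mean of at least 5 or at 12 h. The 4 lower chains of AML1-ETO cells became 0 at 12 h, 3 with a mean of at least 5 or at 3-fold, and 5 without the filter. The 4 higher chains of ETO2-GLIS2 cells became 5 at 1.5-fold. They became 3 with a pseudocount of 1, a mean of at least 5 or against the uninduced empty vector line. They became 2 at 12 h or with the empty vector change subtracted. They became 1, ITGAX, without genes past 2-fold in empty vector cells. That filter took out ITGAM (1.24 in empty vector cells), ITGAL (2.56) and ITGB7 (1.86, mean under 1 FPKM). The study also excluded genes that doxycycline altered in its empty vector line. ITGAM went from 1.24 to 0.80 (pseudocount 1) and 0.74 (12 h) in empty vector cells. In AML1-ETO cells it went from -0.27 to 0.30 (12 h) and -1.52 (empty vector change subtracted). In ETO2-GLIS2 cells it went from 2.36 to 1.95 (pseudocount 1), 1.03 (12 h), 1.11 (empty vector change subtracted) and 3.28 (against the uninduced empty vector line). ITGAL in AML1-ETO cells was 0.94 at 12 h, the reverse of 48 h. Of the other 27 chain values, 27 kept their value within the counting interval with a pseudocount of 0.1 and 18 with a pseudocount of 1, and 20 moved with median ratio scaling, which shifted all genes by 0.16, 0.21 and 0.16 in the empty vector, AML1-ETO and ETO2-GLIS2 lines. The depth limits ITGB7 most, at 4 to 121 reads a library, and the cause of each move was not tested.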

Other observations

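ETO2-GLIS2 is known from megakaryoblastic leukemia, and the platelet integrin chains ITGA2B and ITGB3 were read for that reason after the values were seen. ITGA2B (CD41) was at 0.0116 to 0.107 FPKM and ITGB3 (CD61) at 0 to 0.0417 FPKM over the 9 libraries, with at most 10 reads of ITGA2B and 3 of ITGB3 in ETO2-GLIS2 cells. PF4, PPBP and GP9 were listed at 0 in all 9 libraries, GP1BA was at 0.992 to 2.27 FPKM, and the 6 megakaryocytic markers summed to 1.09 to 2.63 FPKM. At this depth ITGA2B and ITGB3 were not detectable beyond a few reads in any line.

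The summed FPKM of the 10 leukocyte chains was 507, 615 and 662 in empty vector cells, 604, 582 and 235 in AML1-ETO cells and 544, 672 and 789 in ETO2-GLIS2 cells. ITGB2 alone made up 47.8% to 61.6% of it in empty vector cells and 47.5% to 56.7% in ETO2-GLIS2 cells, and 51.4%, 53.0% and 8.55% in AML1-ETO cells. ITGAX per ITGB2, a ratio of FPKM, was 0.00628, 0.00761 and 0.342 in AML1-ETO cells and 0.00804 to 0.0239 in the other 6 libraries. ITGAM per ITGB2 was 0.0415 in AML1-ETO cells at 48 h and 0.0256 in ETO2-GLIS2 cells, from ITGAM levels of 0.832 and 11.5 FPKM.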
